A study of Homo sapiens with 12 samples.

Results

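The genes described here are 10 components of the transforming growth factor beta (TGF-beta) pathway: the ligand genes TGFB1, TGFB2 and TGFB3, the receptor genes TGFBR1 and TGFBR2, the signalling SMAD genes SMAD2 and SMAD3, the inhibitory SMAD genes SMAD6 and SMAD7, and the co-repressor gene SKIL. They were named by symbol and matched to 10 of the 61541 gene identifiers in the deposited tables. The cells were IMR90, a long-established fibroblast line from human fetal lung, and all 12 libraries came from cells given doxorubicin, a DNA-damaging anthracycline used to bring on senescence. The 4 groups, of 3 libraries each, were plastic with 100 nM, a 2 kPa hydrogel with 100 nM, plastic with 250 nM and the hydrogel with 250 nM, with drug for 24 h and at least 8 days of culture afterwards. The titles state doses in nM and the treatment protocol the same numbers in µM, and a PDMS coating is named in the growth protocol where the series design has a hydrogel. No untreated library was among the 12, so the values compare substrates and doses of drug-treated cells.

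TGF-beta is secreted as a latent dimer that stays bound to its propeptide and to matrix proteins until integrins, proteases or mechanical pull release it. The free ligand brings together the type II receptor (TGFBR2) and the type I receptor (TGFBR1), which phosphorylates SMAD2 and SMAD3. These join SMAD4 and enter the nucleus. SMAD7 and SMAD6 block the receptor step, SKIL (also called SnoN) represses SMAD-bound promoters, and SMAD7 and SKIL are themselves known targets of the pathway. In lung fibroblasts the pathway is best known for driving collagen synthesis and the contractile myofibroblast state.

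Total expected counts per library were 5887056 to 7351916 at 100 nM and 2229069 to 2730309 at 250 nM, and dose cannot be told apart from the library set, since molecular identifiers are mentioned in the file names of the 250 nM libraries only. Nothing in the labels says that replicates were separate cultures, so p-values measure the spread between these samples, which may be technical. Of the 10 fibroblast markers 10 passed the expression filter, led by VIM at 2214 CPM (counts scaled to the size of the library, mean of 12), and 0 of 7 leukocyte markers did. Other markers that passed were 3 of 8 epithelial, led by KRT18 at 72.9 CPM, 1 of 6 endothelial, TEK at 20.9 CPM, and 4 of 6 pericyte and smooth muscle markers, led by CNN1 at 80.2 CPM. KRT5, SFTPC, SCGB1A1, CLDN5, CD3E and TYROBP had a count of 0 in every library. Replicate 1 of plastic at 100 nM and replicate 1 of gel at 250 nM stood apart, with 14.3% and 13.2% of counts on ribosomal DNA loci against 24.2% to 30.7% elsewhere. In each of the 4 groups replicate 1 was also the library farthest from the others in its counts, with a chi-square per gene of 6.97 to 54.2 against replicates 2 and 3, which differed from each other by 2.59 to 18.7. This measure grows with depth, so it can be read within a group only, and the ranges over the groups overlap. Results are therefore also given without replicate 1 of all 4 groups, a setting chosen after the data were seen, which leaves 2 libraries a group.

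The stretches before the start sites of 3 members are shown because TGFB2 and SMAD7 are the members called between substrates and SMAD6 alone among the 10 holds the long SMAD site in such a window. The sequences are from RefSeq (GRCh38.p14), 250 bases before an annotated start site, 5′ to 3′ on the gene's strand, at chr1:218345086-218345335 (plus strand) for TGFB2, chr18:48950966-48951215 (minus strand) for the most upstream of 3 SMAD7 starts, and chr15:66701986-66702235 (plus strand) for SMAD6. Capitals mark matches, on either strand, to CAGAC (a SMAD half-site), GTCTAGAC (the SMAD palindrome), CATTCC (TEAD) or TATAAA (the TATA box).
TGFB2: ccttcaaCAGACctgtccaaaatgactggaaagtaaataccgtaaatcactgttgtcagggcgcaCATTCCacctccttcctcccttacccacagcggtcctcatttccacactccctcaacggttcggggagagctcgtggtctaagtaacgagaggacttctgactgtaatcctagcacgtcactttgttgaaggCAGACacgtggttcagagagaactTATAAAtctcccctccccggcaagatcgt
SMAD7: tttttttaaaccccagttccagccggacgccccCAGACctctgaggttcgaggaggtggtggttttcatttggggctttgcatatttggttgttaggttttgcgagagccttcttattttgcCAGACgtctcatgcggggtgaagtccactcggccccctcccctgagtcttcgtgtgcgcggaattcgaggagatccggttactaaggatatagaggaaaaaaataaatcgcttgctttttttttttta
SMAD6: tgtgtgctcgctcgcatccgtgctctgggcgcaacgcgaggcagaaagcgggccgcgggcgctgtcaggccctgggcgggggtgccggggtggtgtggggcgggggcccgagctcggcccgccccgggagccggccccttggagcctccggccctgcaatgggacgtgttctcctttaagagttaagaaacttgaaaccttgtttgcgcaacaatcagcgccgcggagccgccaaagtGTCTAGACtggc

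In the TGFB2 window CAGAC lay at -243 and -53, CATTCC at -185 and TATAAA at -29 from the start site. The printed SMAD7 window held CAGAC at -217 and -128, another SMAD7 window held CAGAC at -193 and TATAAA at -35, and the third held none of the motifs searched. SMAD6 held GTCTAGAC at -12. Over all 35116 windows of the table, each running 250 bases before to 50 after a start, CAGAC was in 45.3%, GTCTAGAC in 0.202%, CATTCC in 14.0% and TATAAA in 11.5%. The other motifs searched were TGANTCA (AP-1), in 7.71% of windows and in those of TGFBR2 and SMAD3, and TGACGTCA (a cyclic AMP response element), in 1.85% and in that of SKIL at -54. GTCTAGAC holds no CAGAC on either strand, so these 2 motifs were counted separately. The matches describe letters only, sequence outside these windows was not searched, and binding was not measured. The SMAD7 gene as positioned in GENCODE 29 begins at 48952052, upstream of all its windows. The stretch before that start was therefore not searched, and whether it holds GTCTAGAC is not known from these windows.

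**Figure D1:**
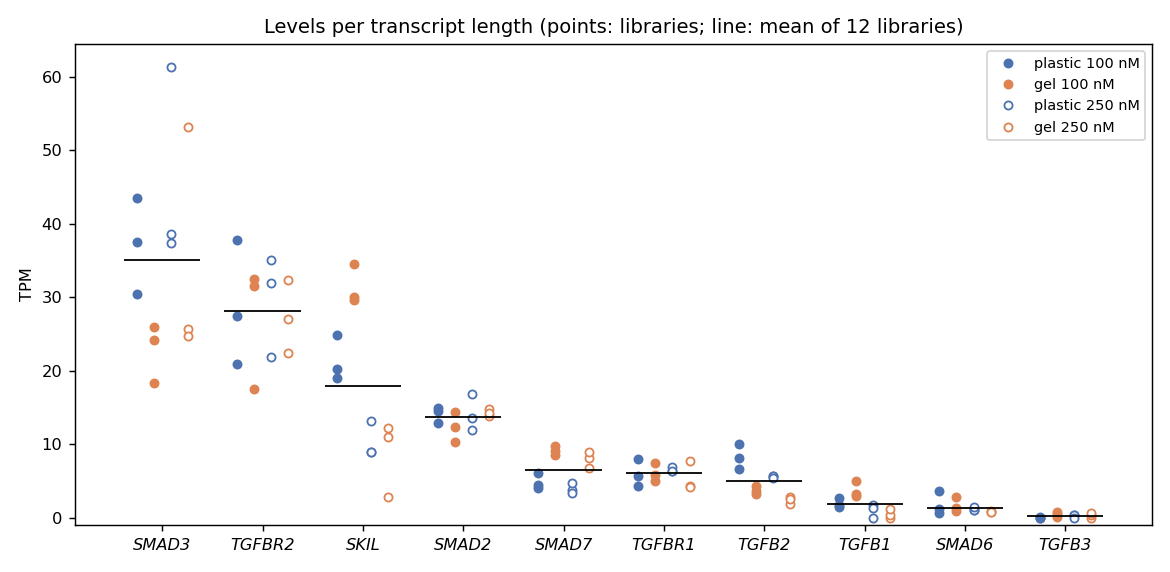
TPM (a level scaled for transcript length and library total) of the 10 genes on the vertical axis, ordered by their mean; each point is 1 library, filled at 100 nM and open at 250 nM, blue on plastic and orange on gel, and the line is the mean of 12 libraries. SMAD3 and TGFBR2 lead, and TGFB3 stays under 1 TPM in all 12 libraries.

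Levels between genes are compared here in TPM, as a description. SMAD3 had the highest mean over the 12 libraries, 35.1 TPM (18.3 to 61.4), ahead of TGFBR2 at 28.2 TPM (17.5 to 37.8), SKIL at 17.9 TPM (2.79 to 34.5) and SMAD2 at 13.7 TPM (10.3 to 16.8). TGFB2 is placed without the reads assigned to TGFB2-OT1, an overlapping gene described below, which took more reads than TGFB2 itself. The TPM of TGFB2 also rests on a listed transcript length shorter than its coding transcripts, given below. A lower tier held SMAD7 at 6.43 TPM, TGFBR1 at 6.00 TPM and TGFB2 at 4.96 TPM. TGFB1 at 1.79 TPM, SMAD6 at 1.35 TPM and TGFB3 at 0.252 TPM came last.

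Several neighbours in this order exchanged places between libraries. SMAD3 exceeded TGFBR2 in 7 of 12 libraries, SKIL exceeded SMAD2 in 7, SMAD7 exceeded TGFBR1 in 7, TGFBR1 exceeded TGFB2 in 9 and TGFB1 exceeded SMAD6 in 8. TGFBR2 exceeded SKIL in 10 and TGFB2 exceeded TGFB1 in 10. Only the steps from SMAD2 to SMAD7 and from SMAD6 to TGFB3 held in 12 of 12. By these means the type II receptor lay above the type I receptor, and the SMADs that carry the signal above those that block it. Rescaling TPM over nuclear protein-coding genes left the order of the means as it was.

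**Figure D2:**
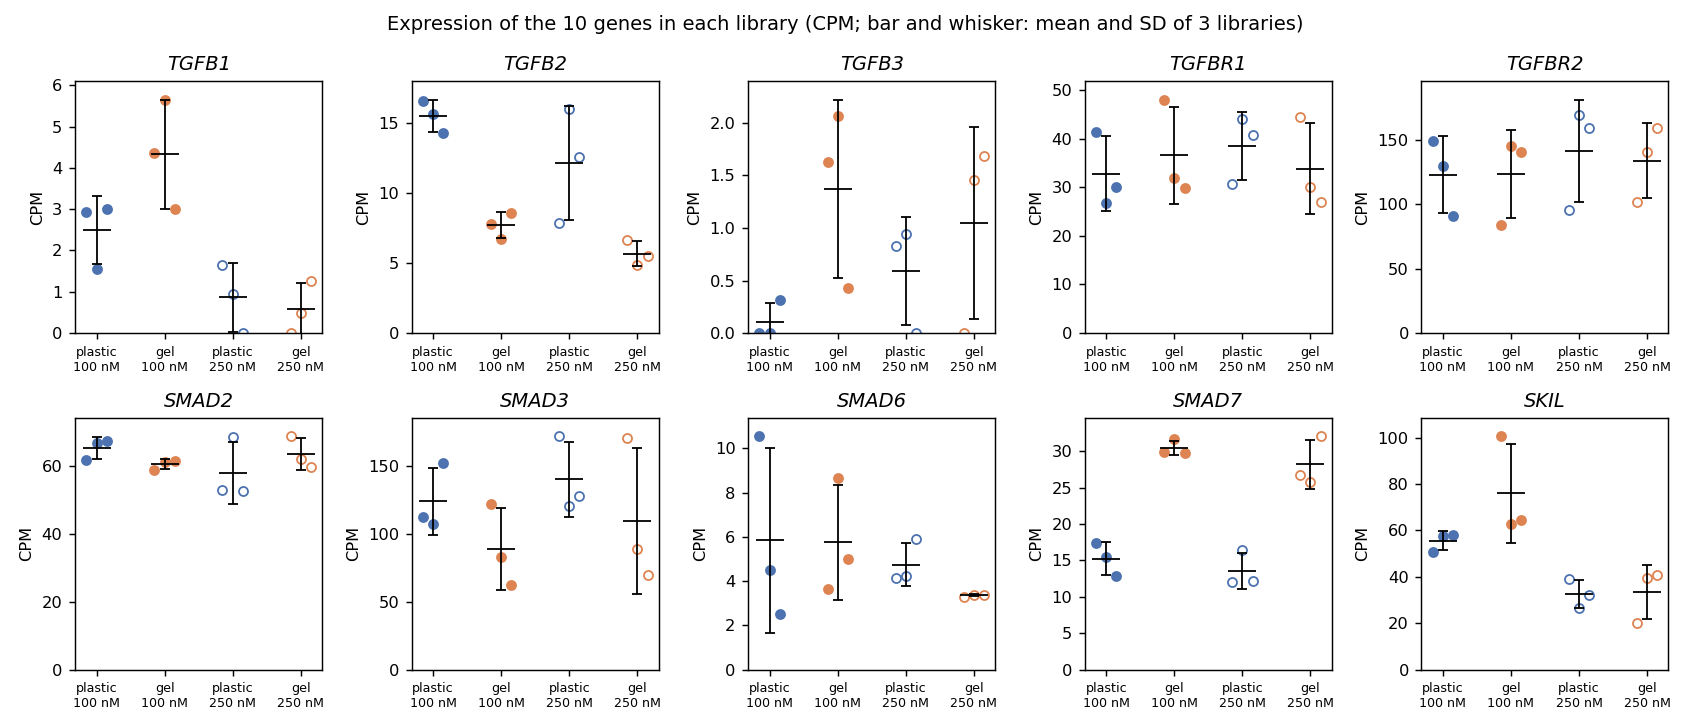
CPM of each of the 10 genes (vertical axis, from 0) in the 4 groups; points are libraries, filled at 100 nM and open at 250 nM, and the bar and whisker are the mean and SD of 3 libraries, cut at 0. SMAD7 is higher and TGFB2 lower in the gel libraries at both doses, while SKIL and TGFB1 are lower in the 250 nM libraries on gel.

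Between substrates, 2 of the 9 tested genes passed the test, in opposite directions. SMAD7, the inhibitor of the receptor step, was 2.04-fold higher on gel, and TGFB2, a ligand, was 2.06-fold lower, both as the average over the 2 doses. The result held in 23 of 24 alternative settings for SMAD7 and in 11 of 24 for TGFB2. The receptors, SMAD2, SMAD3, SMAD6, SKIL and TGFB1 did not pass the test. The test was edgeR's quasi-likelihood test on rounded expected counts, and a gene was called at a Benjamini-Hochberg adjusted p under 0.05 over all 12329 genes that passed the filter. Of the 10 members 9 passed the filter, TGFB3 being too low. In the average over doses 2 of these 9 were called, where the test called 0.754% of all genes (93), 0.276% higher and 0.479% lower. The members were chosen with earlier results of these data known, so this share is a description. At 100 nM alone 0 of 9 members were called, with 0.227% of all genes, and at 250 nM alone 0 of 9, with 0.00811%. At an unadjusted p under 0.05 the members were SMAD7 and TGFB2 at either dose, 2 of 9, against 9.9% of all genes at 100 nM and 10.0% at 250 nM. DESeq2 called 1 member at each dose, SMAD7. Limma-voom with sample weights called 2 members at 100 nM and 1 at 250 nM, and limma-trend on log2(TPM + 1) called 0 at either dose.

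The 3 ligands are secreted dimers that bind the same receptors. TGFB2 (ENSG00000092969, chromosome 1, 218346235 to 218444619, plus strand, GRCh38) stood at 16.5, 15.6 and 14.2 CPM in replicates 1 to 3 on plastic at 100 nM, and at 7.80, 6.74 and 8.56 CPM on gel. At 250 nM it stood at 7.86, 16 and 12.6 CPM on plastic and at 6.61, 4.86 and 5.48 CPM on gel. Every gel library lay under every plastic library of its dose, by a narrow gap at 250 nM, where replicate 1 on plastic was low.

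The log2 change of TGFB2 was -1.01 (SE 0.28) at 100 nM and -1.08 (SE 0.32) at 250 nM, with edgeR adjusted p = 0.215 and 0.288. Its average was -1.04 (SE 0.21, 95% interval -1.53 to -0.56 on 8 degrees of freedom), adjusted p = 0.0381 in edgeR, lower in 6 of 6 gel libraries. This call stood in 11 of 24 alternative settings, in which the log2 change ran from -1.16 to -0.89 and the adjusted p of the same tests from 0.0030 to 0.117. It was kept without replicate 1 of plastic at 250 nM (edgeR adjusted p = 0.0254) and without replicate 1 of gel at 250 nM (0.0223), and lost without any 1 of the other 10 libraries (0.0620 to 0.117). It was also lost with the replicate number as a block (log2 change -1.04, edgeR adjusted p = 0.0602). It was kept without replicate 1 of all 4 groups (-1.21, 0.0072), and without the pair low in ribosomal DNA reads, plastic 100 nM and gel 250 nM replicate 1 (-1.09, 0.0348).

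Part of the last exon of TGFB2 is also annotated as another gene. TGFB2-OT1 (ENSG00000281453, chromosome 1, 218442626 to 218443996, plus strand) is a noncoding RNA of 1371 bases on the same strand, and its whole sequence lies within both coding TGFB2 transcripts, of 4969 and 5053 bases, ending 623 bases before their ends. Reads from that stretch cannot be assigned to 1 of the 2 genes by sequence, and TGFB2-OT1 took 1950 of the counts of the locus against 595 for TGFB2 over the 12 libraries. TGFB2-OT1 stood at 75.1, 26.0 and 27.2 CPM on plastic at 100 nM against 5.26, 12.6 and 16.4 on gel. At 250 nM it stood at 79.0, 85.9 and 85.6 CPM on plastic against 26.4, 30.6 and 32.0 on gel. Gel and plastic libraries lay apart at each dose, and replicate 1 of plastic at 100 nM was far above its group.

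Over both doses TGFB2-OT1 was 3.23-fold lower on gel (log2 change -1.69, SE 0.30, edgeR adjusted p = 0.0175, called in 20 of 24 alternative settings). Its change was -1.31 (0.0160) without the pair low in ribosomal DNA reads and -1.17 (2.41e-04) without replicate 1 of all 4 groups. Summing the counts of both genes, a choice made after the data were seen, gave 91.7, 41.7 and 41.5 CPM on plastic and 13.1, 19.4 and 25.0 on gel at 100 nM. At 250 nM the sums were 86.9, 102 and 98.2 CPM on plastic and 33.0, 35.4 and 37.5 on gel. The summed locus was 2.87-fold lower on gel over both doses (log2 change -1.52, SE 0.22, edgeR adjusted p = 0.0055). Without any 1 library, or without replicate 1 of plastic at 100 nM and of gel at 250 nM together, its log2 change ran from -1.64 to -1.26 and its edgeR adjusted p from 0.0035 to 0.0235. At single doses the sum gave adjusted p = 0.0574 at 100 nM and 0.196 at 250 nM in edgeR, and the former became 0.0320 without replicate 1 of gel at 250 nM. Leaving out replicate 1 of all 4 groups gave the sum log2 changes of -0.90 at 100 nM (0.0099), -1.47 at 250 nM (0.0027) and -1.18 on average (1.21e-04). TGFB2-OT1 took 40.3% to 82% of the summed CPM in the 100 nM libraries and 80% to 91.0% at 250 nM. Apart from replicate 1 of plastic at 100 nM, at 82%, the shares of the 2 library sets did not overlap.

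**Figure D3:**
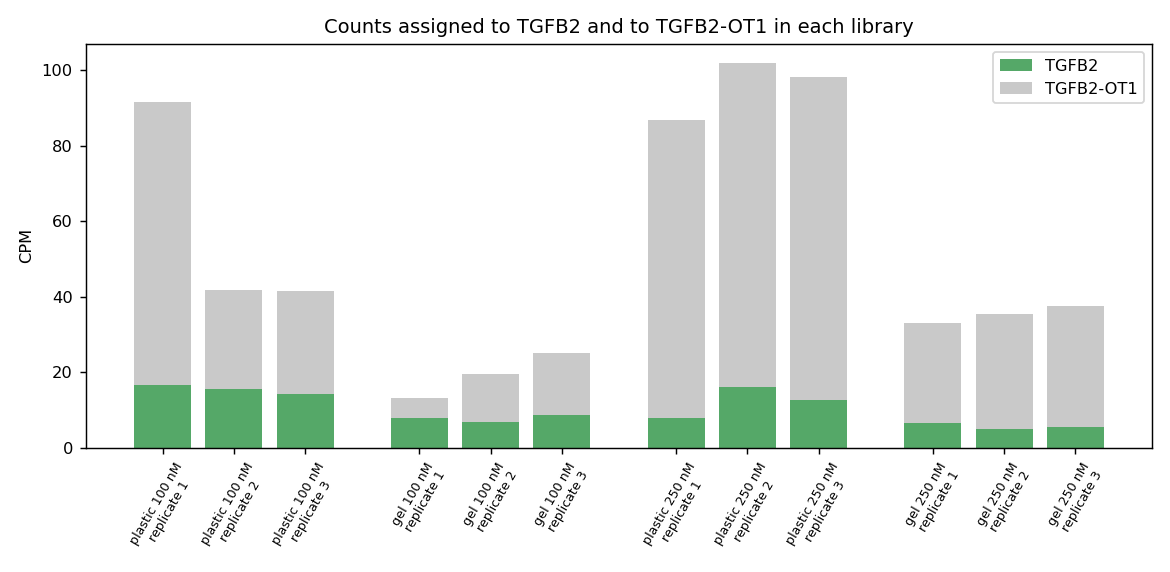
CPM assigned to TGFB2 (green) and, stacked on it, to TGFB2-OT1 (grey) in each of the 12 libraries. Both parts are lower on gel, and the summed bars on gel (13.1 to 37.5 CPM) lie under those on plastic (41.5 to 102 CPM).

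TGFB1, the ligand most studied in fibrosis (ENSG00000105329, chromosome 19, 41301587 to 41353911, minus strand), was sparsely counted, with 147 reads over the 12 libraries. It stood at 2.94, 1.55 and 3.01 CPM on plastic and at 4.35, 5.64 and 2.99 CPM on gel at 100 nM, with slightly overlapping groups. At 250 nM it stood at 1.66, 0.939 and 0 CPM on plastic and at 0, 0.486 and 1.26 CPM on gel. A count of 0 allows up to 1.18 CPM in the plastic library and 0.991 in the gel library (3 counts, counting error alone). Its average log2 change on gel was 0.09 (SE 0.76, 95% interval -1.66 to 1.84, edgeR adjusted p = 0.978), an interval wide enough to hold a change of the size of TGFB2's. TGFB1 overlaps HNRNPUL1, CCDC97 and TMEM91 on the opposite strand, and the strand setting of the counting is not given in the sources used here.

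TGFB3, the third ligand (ENSG00000119699, chromosome 14, 75958099 to 75982991, minus strand), had 40 reads in all and was not tested. Its counts were 0, 0 and 2 on plastic and 9, 15 and 3 on gel at 100 nM, and 2, 2 and 0 on plastic and 0, 3 and 4 on gel at 250 nM. A count of 0 allows up to 0.400 and 0.465 CPM in the plastic libraries at 100 nM. At 100 nM the 2 substrates did not overlap, and at 250 nM they did. TGFB3 overlaps IFT43 on the opposite strand, which had 251 reads in the same libraries.

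As a share of the summed ligand TPM, TGFB2 made up 85.1%, 84.7% and 70.5% on plastic at 100 nM and 46.0%, 38.9% and 59.0% on gel, which did not overlap. TGFB1 made up 14.9%, 15.3% and 28.5% on plastic and 47.2%, 53.4% and 39.2% on gel. At 250 nM the share of TGFB2 ran from 73.7% to 100% on plastic and from 59.8% to 100% on gel, with overlap. These shares leave out TGFB2-OT1 and rest on few reads at 250 nM, where the TGFB1 groups summed to 6 counts on plastic and 4 on gel. They also depend on the short transcript length listed for TGFB2, given below.

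Neither receptor gene passed the test between substrates. TGFBR2, the type II receptor that binds the ligand first (ENSG00000163513, chromosome 3, 30606502 to 30694142, plus strand), measured 149, 130 and 90.6 CPM on plastic and 83.8, 145 and 141 on gel at 100 nM. The 250 nM libraries held 95.6, 169 and 159 CPM on plastic and 102, 141 and 159 on gel. The groups overlapped at both doses, and the average log2 change was -0.04 (95% interval -0.50 to 0.43, edgeR adjusted p = 0.965).

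TGFBR1, the type I receptor kinase that phosphorylates SMAD2 and SMAD3 (ENSG00000106799, chromosome 9, 99104038 to 99154192, plus strand), measured 41.5, 26.8 and 30.1 CPM on plastic and 48.1, 31.9 and 29.8 on gel at 100 nM. With 250 nM its values were 30.6, 44.1 and 40.8 CPM on plastic and 44.6, 30.1 and 27.0 on gel. These groups overlapped too, with replicate 1 the highest on gel at both doses. Its average log2 change was -0.01 (95% interval -0.45 to 0.43, edgeR adjusted p = 0.991).

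SMAD2, a signal carrier (ENSG00000175387, chromosome 18, 47808957 to 47931146, minus strand), varied least among the 9 tested members relative to its level, from 52.6 to 68.7 CPM over the 12 libraries. It measured 61.7, 66.9 and 67.3 CPM on plastic and 58.8, 61.2 and 61.6 on gel at 100 nM, just without overlap. The values at 250 nM were 53.0, 68.5 and 52.6 CPM on plastic and 68.7, 62.1 and 59.8 on gel, with overlap. Its average log2 change was 0.01 (95% interval -0.26 to 0.29, edgeR adjusted p = 0.980).

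SMAD3, the other signal carrier and the one that binds DNA directly (ENSG00000166949, chromosome 15, 67063763 to 67195195, plus strand), measured 113, 107 and 153 CPM on plastic and 122, 83.3 and 62.6 on gel at 100 nM. With 250 nM SMAD3 reached 172, 121 and 128 CPM on plastic and 171, 89.3 and 69.5 on gel. In both gel groups replicate 1 reached the plastic range and the other libraries lay below it. The average log2 change was -0.41 (SE 0.23, 95% interval -0.94 to 0.12, edgeR adjusted p = 0.488), and 1 of 24 alternative settings, limma-voom with sample weights, called it (-0.71, adjusted p = 0.0115). SMAD3 passed the test, lower on gel, once replicate 1 of all 4 groups was left out, both on average (-0.75, edgeR adjusted p = 0.0084) and at 100 nM (-0.82, 0.0278).

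SMAD7 (ENSG00000101665, chromosome 18, 48919853 to 48952052, minus strand) recruits ubiquitin ligases to the active receptor and competes with SMAD2 and SMAD3 for it. It stood at 17.3, 15.5 and 12.8 CPM on plastic and at 29.9, 31.6 and 29.8 CPM on gel at 100 nM. In the 250 nM libraries SMAD7 stood at 12, 16.4 and 12.2 CPM on plastic and at 26.8, 25.7 and 32.0 CPM on gel. The lowest gel library, at 25.7 CPM, lay above the highest plastic library, at 17.3 CPM, across both doses.

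The log2 change of SMAD7 was 1.00 (SE 0.21, edgeR adjusted p = 0.102) at 100 nM and 1.06 (SE 0.23, adjusted p = 0.201) at 250 nM. Its average was 1.03 (SE 0.15, 95% interval 0.67 to 1.39, edgeR adjusted p = 0.0066), higher in 6 of 6 gel libraries. The call stood in 23 of 24 alternative settings, with log2 changes of 0.83 to 1.11 and adjusted p of 1.41e-06 to 0.0536. The exception was limma-trend on log2(TPM + 1), with an adjusted p of 0.0536. Without replicate 1 of plastic at 100 nM and of gel at 250 nM together, the change was 1.10 (edgeR adjusted p = 0.0050), and without replicate 1 of all 4 groups it was 1.07 (0.0026). At 100 nM alone SMAD7 passed without replicate 1 of gel at 250 nM, a library outside that comparison (edgeR adjusted p = 0.0337), and without replicate 1 of all 4 groups (0.0114). SMAD7 overlapped no other annotated gene, and its RSEM transcript length was 3341 bases in all 12 libraries.

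SMAD6 (ENSG00000137834, chromosome 15, 66702228 to 66782848, plus strand) acts mainly against signals of bone morphogenetic proteins (BMP). It measured 10.5, 4.49 and 2.53 CPM on plastic and 3.63, 8.66 and 4.99 on gel at 100 nM, and 4.14, 4.22 and 5.89 on plastic and 3.30, 3.40 and 3.37 on gel at 250 nM. The groups overlapped at 100 nM and lay apart, lower on gel, at 250 nM, where each library held 7 to 15 counts. The average log2 change was -0.26 (SE 0.38, 95% interval -1.13 to 0.60, edgeR adjusted p = 0.842), so of the 2 inhibitory SMADs 1 was called.

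Per transcript length, SMAD6 and SMAD7 made up 15.5%, 11.1% and 7.73% of the summed TPM of SMAD2, SMAD3, SMAD6 and SMAD7 on plastic at 100 nM, and 20.6%, 25.4% and 24.1% on gel. At 250 nM the share was 6.19%, 9.49% and 8.29% on plastic and 11.7%, 15.6% and 19.9% on gel. These groups lay apart at each dose, and the share includes SMAD7, which was tested above.

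SKIL, a co-repressor that SMAD signalling first degrades and then induces (ENSG00000136603, chromosome 3, 170357678 to 170396835, plus strand), did not pass the test between substrates. It measured 50.8, 57.8 and 57.9 CPM on plastic and 101, 63.0 and 64.6 on gel at 100 nM, without overlap, with replicate 1 the highest on gel. The 250 nM libraries held 38.9, 26.8 and 32.2 CPM on plastic and 20.2, 39.3 and 40.9 on gel, with overlap and with replicate 1 the lowest on gel. The log2 change was 0.45 (edgeR adjusted p = 0.603) at 100 nM, 0.02 (0.986) at 250 nM and 0.24 (SE 0.19, 95% interval -0.21 to 0.69, adjusted p = 0.680) on average.

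Counting separation instead of calls, the substrates did not overlap at 100 nM for SMAD7 and SKIL (higher on gel) and TGFB2 and SMAD2 (lower), where 19.0% of all tested genes did not overlap. At 250 nM they did not overlap for SMAD7 (higher) and TGFB2 and SMAD6 (lower), against 15.1% of all genes. SMAD7 and TGFB2, 2 of 9, lay apart in the same direction at both doses, as did 3.18% of all genes. The gel effect did not pass a test of difference between the doses for any member (0 of 9, and 0.0% of all genes; edgeR adjusted p from 0.821 to 0.971). The difference between doses was 0.06 for SMAD7 (SE 0.31, 95% interval -0.64 to 0.77) and -0.08 for TGFB2 (SE 0.42, -1.04 to 0.88). At an unadjusted p under 0.05 that test held 0 members and 6.32% of all genes, and DESeq2, limma-voom and limma-trend called 0 members.

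The summed CPM of the fibroblast and endothelial marker lists lay apart between substrates at each dose, as did SMAD7 and TGFB2. The 10 fibroblast markers include 3 collagen genes and DCN. They summed to 5707 to 7485 CPM on plastic and 4088 to 4778 on gel at 100 nM. At 250 nM they summed to 4785 to 5246 CPM on plastic and 1749 to 2858 on gel. The 6 endothelial markers, mostly TEK, summed to 16.4 to 31.0 CPM on plastic and 7.29 to 12.5 on gel at 100 nM, and to 31.5 to 38.1 and 9.69 to 30.7 at 250 nM. The pericyte and smooth muscle markers summed to 119 to 207 CPM on plastic and 90.5 to 130 on gel at 100 nM, and to 178 to 264 and 180 to 200 at 250 nM, with overlap at both doses. The 8 epithelial markers overlapped too, at 55.6 to 115 CPM on plastic and 42.5 to 114 on gel at 100 nM, and 90.6 to 221 and 100.1 to 166 at 250 nM. Their part in the results was not tested, and in bulk samples fewer cells of a type and less RNA per cell cannot be told apart.

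**Figure D4:**
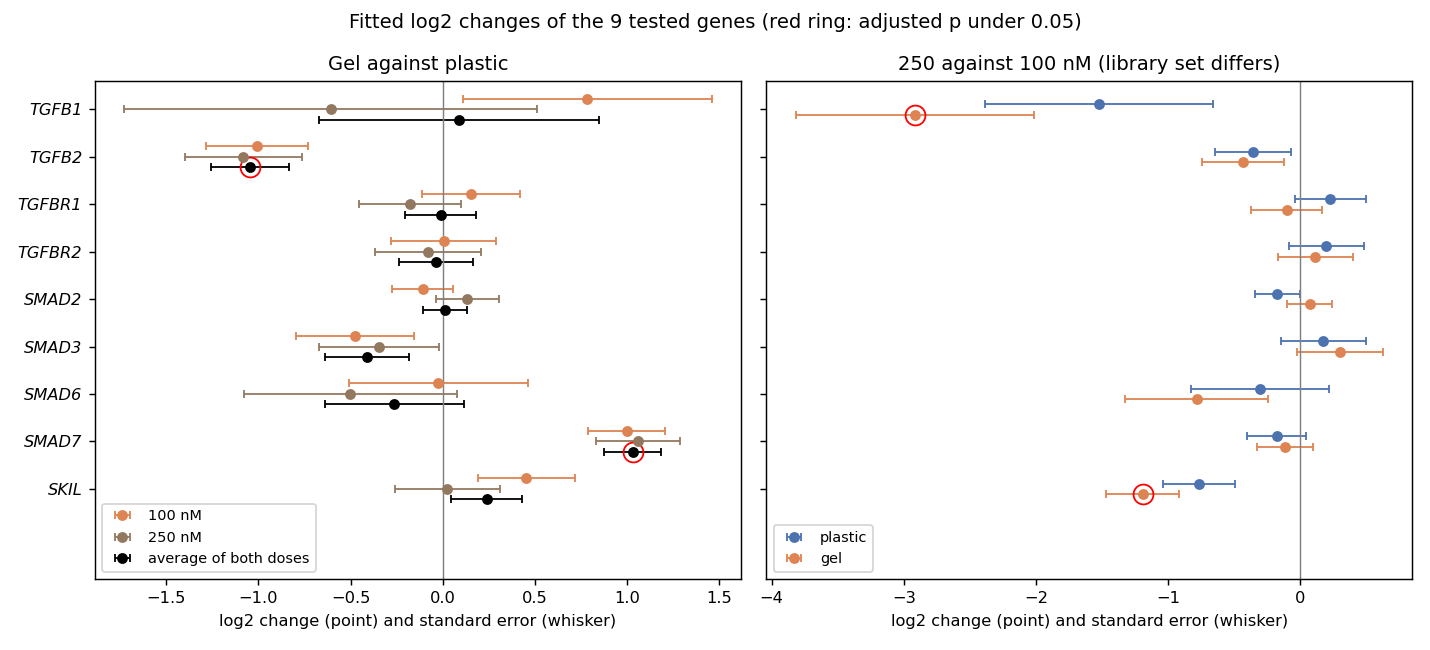
Fitted log2 changes (points) with standard errors (whiskers) of the 9 tested members, gel against plastic at each dose and on average (left) and 250 against 100 nM on each substrate (right); a red ring marks an edgeR adjusted p under 0.05. SMAD7 (1.03) and TGFB2 (-1.04) are ringed for the average over doses, and SKIL (-1.19) and TGFB1 (-2.92) for dose on gel.

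Between doses, 2 members were lower at 250 than at 100 nM on gel, SKIL and TGFB1, and 0 of 9 passed the edgeR test on plastic, where 1 had an unadjusted p under 0.05, DESeq2 and limma-trend called 0 and limma-voom called 1. In these comparisons dose and library set cannot be told apart, and 13.8% of all tested genes were called on gel (6.9% lower) and 8.52% on plastic. On gel SKIL was 2.28-fold lower (log2 change -1.19, SE 0.28, 95% interval -1.83 to -0.56, edgeR adjusted p = 0.0157). All 3 gel libraries at 250 nM (20.2 to 40.9 CPM) lay under all 3 at 100 nM (63.0 to 101 CPM). The call of SKIL stood in 23 of 25 alternative settings and was lost without replicate 1 of gel at 100 nM (-0.94, edgeR adjusted p = 0.0644) and with only the 6 gel libraries in the fit (0.0753), the highest of the alternatives, which began at 3.27e-04. Removing the GC content trend gave -0.66 (edgeR adjusted p = 0.0450). Leaving out replicate 1 of plastic at 100 nM and of gel at 250 nM together gave -0.94 (0.0215). Limma-trend on log2(TPM + 1) gave -1.94. That value also depends on the transcript length of SKIL, which was listed as much longer in replicate 1 of gel at 250 nM. Leaving out all 4 replicates numbered 1 gave -0.69 on gel (0.0118) and -0.96 on plastic (0.0011).

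On plastic the log2 change of SKIL was -0.76 (SE 0.27, 95% interval -1.40 to -0.13, edgeR adjusted p = 0.0964), again without overlap (26.8 to 38.9 CPM under 50.8 to 57.9). It was called in 5 of 25 alternative settings, among them without replicate 1 of gel at 250 nM (adjusted p = 0.0243), over a range of 0.0046 to 0.303. SKIL was 1 of 9 members without overlap on plastic. On gel 4 of 9 lay apart, TGFB1, TGFB2, SMAD6 and SKIL, all lower at 250 nM. On either substrate 35.8% of all genes did not overlap.

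The change of TGFB1 on gel, -2.92 on the log2 scale (SE 0.90, edgeR adjusted p = 0.0473), rested on 86 counts in the 3 libraries at 100 nM and 4 at 250 nM. It was called in 10 of 24 alternative settings, and the adjusted p of those settings ran from 0.016 to 0.122. Without any 1 of the 3 gel libraries at 100 nM the edgeR adjusted p was 0.0690 to 0.122, and without any 1 of the 3 plastic libraries at 100 nM it was 0.0534 to 0.0601. Among the 250 nM libraries, leaving out gel replicate 1 gave 0.101, gel replicate 2 gave 0.0882 and plastic replicate 2 gave 0.0652. A replicate block also ended the call (0.0716), as did leaving out the pair of libraries low in ribosomal DNA reads (0.0967) or all 4 replicates numbered 1 (0.0962). On plastic the log2 change was -1.52 (SE 0.86, adjusted p = 0.284).

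The other members did not pass the edgeR test between doses on either substrate. The log2 difference of SMAD7 was -0.17 on plastic (95% interval -0.69 to 0.34) and -0.11 on gel (-0.60 to 0.37). For TGFB2 it was -0.36 on plastic (95% interval -1.01 to 0.30) and -0.43 on gel (-1.14 to 0.28). Counts assigned to TGFB2-OT1 went the other way and were higher at 250 nM on gel (log2 change 1.36, SE 0.43, edgeR adjusted p = 0.0499). This was called in 13 of 25 alternative settings, whose tests gave adjusted p of 4.81e-04 to 0.147. Shared reads cannot be assigned by sequence, and the share given to TGFB2-OT1 was mostly higher in the 250 nM library set. The opposite signs therefore cannot be told apart from a different split of reads between both genes. For the summed TGFB2 locus the change was 0.88 on gel (adjusted p = 0.0777) and 0.71 on plastic (0.151). Without replicate 1 of plastic at 100 nM both of these passed the test, at 0.87 (edgeR adjusted p = 0.0240) and 1.21 (0.0212).

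Replicate 1 stood apart in the values of several members, in each of the 4 groups. On plastic at 100 nM SMAD6 was 10.5 CPM in replicate 1 against 4.49 and 2.53, and on gel at 100 nM SKIL was 101 against 63.0 and 64.6 and TGFBR2 83.8 against 145 and 141. On plastic at 250 nM replicate 1 held TGFB2 at 7.86 CPM against 16 and 12.6 and TGFBR2 at 95.6 against 169 and 159, and on gel at 250 nM SMAD3 at 171 against 89.3 and 69.5. With these 4 libraries left out TGFBR1 (log2 change 0.58, edgeR adjusted p = 0.0292) and TGFBR2 (0.58, 0.0234) were higher at 250 nM on plastic, calls that the 12 libraries did not give.

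RSEM's transcript length, a mean over isoforms weighted by their abundance, gave a second readout of the members. It was compared by limma on log2 length over 10560 genes whose length varied, 8 of the 9 tested members among them. Of these 8, 0 were called in any comparison, against 0.0189% of genes for gel over both doses, 2.32% for dose on plastic and 4.17% for dose on gel. TGFBR2 was nearly constant, from 4530 to 4543 bases. SKIL ran from 2170 to 3303 bases in 11 libraries and was listed at 7155 bases in replicate 1 of gel at 250 nM. That library had the lowest SKIL value (2.79 TPM), and since TPM is scaled by length, the value depends on the length listed. In CPM, which does not use length, SKIL was also lowest in that library. TGFB2 ran from 1508 to 3570 bases, shorter than both of its coding transcripts in every library. Its other annotated transcripts, of 405 and 1508 bases, are noncoding, so part of its abundance was assigned to noncoding transcripts throughout. In replicate 1 of plastic at 250 nM the listed length was that of the longer noncoding transcript, 1508 bases. The TPM of TGFB2, its place among the members and its ligand shares depend on these lengths.

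Around the members, 7 lists of pathway genes were counted, with 118 genes of which 99 were tested. For gel over both doses 7 of the 99 were called (7.07%), where the test called 0.754% of all genes. An unadjusted p under 0.05 was found for 26 (26.3%), as it was for 12.5% of all genes. The lists were chosen with earlier results of these data known, so these shares are a description and no test of the pathway. Of 22 genes of the latent complex and its activation 18 were tested and 0 passed between substrates, with a median log2 change on gel over both doses of -0.03 (all genes -0.0048). ITGB1, an integrin subunit, led this list at 2081 TPM, followed by LTBP1, which tethers latent TGF-beta to matrix, at 168 TPM. Of 11 other receptors and co-receptors 10 were tested and 0 passed (median -0.20), with ACVRL1 at 37.1 TPM and BMPR2 at 14.8 TPM the most abundant. Of 14 other ligands of the family 7 were tested and 0 passed (median 0.45), led by INHBA, the activin subunit, at 177 TPM and GDF15 at 114 TPM. By TPM INHBA exceeded each of the TGF-beta ligand genes, the highest of which, TGFB2, averaged 4.96 TPM without the reads assigned to TGFB2-OT1. Of 22 other SMADs and intracellular regulators 21 were tested and 0 passed (median 0.09), and of 8 BMP target genes 7 were tested and 0 passed (median 0.09). In the order given, these 5 lists held 0, 1, 6, 2 and 1 genes at an unadjusted p under 0.05. DESeq2 called 0, 0, 2, 2 and 0 of them, limma-voom 3, 0, 3, 2 and 1, and limma-trend 0, 0, 1, 0 and 0. Without replicate 1 of gel at 250 nM edgeR called 1 gene of the latent complex and 2 intracellular regulators, and without replicate 1 or 2 of gel at 100 nM it called 1 intracellular regulator. Leaving out all 4 replicates numbered 1 gave 3, 0, 3, 2 and 2 calls in the 5 lists.

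Genes that passed between substrates were found among the secreted antagonists and the targets, and all of them were lower on gel. Of 14 antagonists 12 were tested and 3 were lower over both doses: DCN, the proteoglycan decorin that binds TGF-beta (log2 change -1.67, edgeR adjusted p = 0.00102), FSTL1, a follistatin-like glycoprotein (-0.93, 0.00665), and CRIM1, which binds BMPs (-0.77, 0.0448). The median of the 12 was -0.21, and 0.479% of all tested genes were called lower. FSTL1 averaged 1020 ± 178 CPM on plastic and 529 ± 51.5 on gel at 100 nM (SD, n = 3 each). CRIM1 was called in 14 of 24 alternative settings, FSTL1 and DCN in 24 of 24. Each of the 3 was called when the pair of libraries low in ribosomal DNA reads, or all 4 replicates numbered 1, were left out.

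Of 27 TGF-beta target genes of fibroblasts 24 were tested. Over both doses 4 were called lower on gel and 0 higher, where 0.479% of all tested genes were called lower. By sign 15 of the 24 log2 changes were negative and 9 positive. Their median was -0.38 where that of all genes was -0.0048. The 4 were the collagen genes COL1A1 (-1.91, edgeR adjusted p = 6.51e-05) and COL1A2 (-1.42, 0.00102), POSTN, the matrix protein periostin (-1.46, 0.0232), and ACTA2, the smooth muscle actin of myofibroblasts (-1.26, 0.0355). Other classical targets did not pass, among them CCN2 (-0.66, edgeR adjusted p = 0.243) and TAGLN (-0.57, 0.346), which were picked after their values were seen. POSTN and ACTA2 were each called in 14 of 24 alternative settings, and the count of 4 ran from 1 (limma-trend on log2(TPM + 1)) to 11 (no filter) over them. It was 2 without replicate 2 of plastic at 100 nM, replicate 3 of gel at 100 nM, replicates 1 or 2 of plastic at 250 nM, or replicates 2 or 3 of gel at 250 nM. Of the 4, ACTA2 alone was lost without the pair low in ribosomal DNA reads (-1.21, edgeR adjusted p = 0.0513). With all 4 replicates numbered 1 left out 8 targets were called. COL1A1 and COL1A2, like DCN among the antagonists, also mark fibroblasts and belong to the summed marker list given above.

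Between doses 12 of the 99 tested list genes were called on gel (12.1%), where 13.8% of all genes were, and 6 on plastic (6.06%, all genes 8.52%), so neither share lay above that of all genes. Of the intracellular regulators 4 were lower at 250 nM on gel: SMURF2, a ubiquitin ligase that SMAD7 recruits (log2 change -0.83, edgeR adjusted p = 0.0117), SKI, the closest relative of SKIL (-0.96, 0.0217), USP15, a deubiquitinase (-1.04, 0.0317), and SMAD9, a SMAD of the BMP branch (-1.35, 0.0391). The type I receptor genes ACVR1 (-1.37, 0.0264) and ACVR1B (-1.01, 0.0363) were also lower on gel. TGFBI, a matrix protein named for its induction by TGF-beta, was higher at 250 nM on plastic (1.21, 0.0280) and gel (0.99, 0.0446), as was the integrin subunit gene ITGB5 (1.03, 0.0147, and 0.97, 0.0146). The other calls were higher FN1 (0.80) and lower PLAU (-2.97), DCN (-1.55) and CRIM1 (-0.81) on plastic, and higher ACTA2 (1.22) and GDF11 (0.68) and lower FBN1 (-0.86) and CRIM1 (-1.01) on gel. Of 25 alternative settings the calls on gel stood in 12 for ACVR1B and GDF11, 13 for SMAD9 and FBN1, 16 for TGFBI, 17 for ACTA2, 19 for USP15, 20 for ACVR1, 21 for SKI, 22 for ITGB5 and 23 for SMURF2 and CRIM1. Those on plastic stood in 15 for FN1, 16 for CRIM1, 20 for TGFBI, 21 for ITGB5, 22 for PLAU and 25 for DCN. Plastic and gel do not share libraries in these comparisons, while each uses the libraries of a substrate comparison above.

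**Figure D5:**
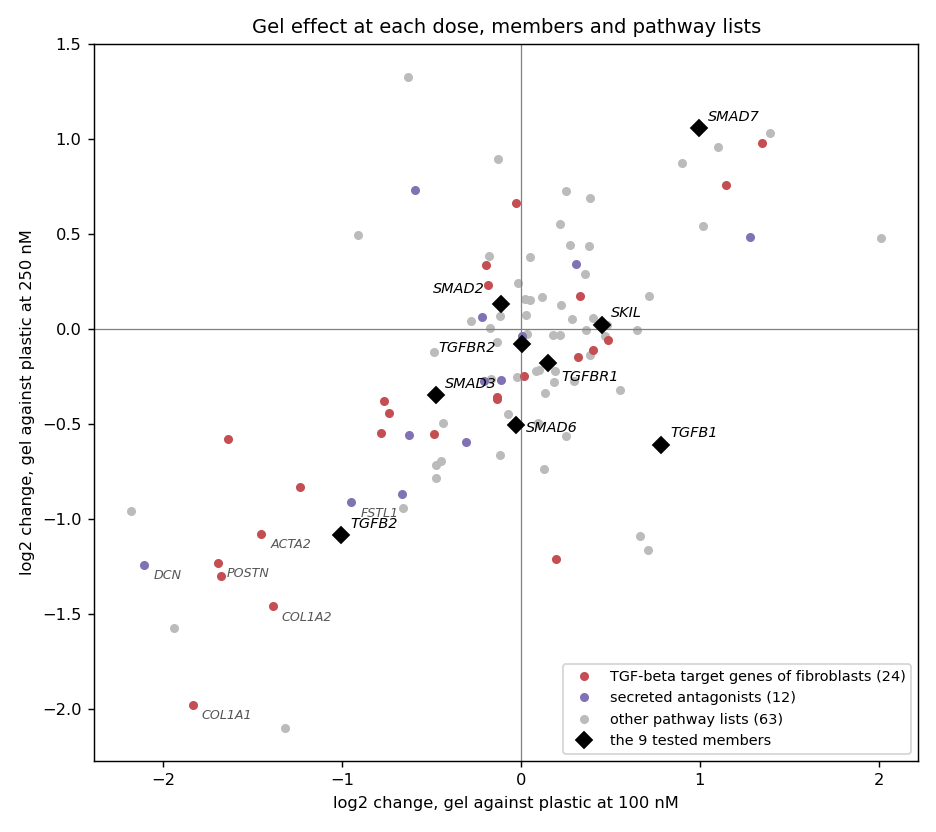
Log2 change of gel against plastic at 100 nM (horizontal axis) and at 250 nM (vertical axis) for the 9 tested members (black diamonds) and the tested genes of the pathway lists (circles: red, TGF-beta targets; violet, secreted antagonists; grey, the other lists). SMAD7 lies at the upper right (1.00 and 1.06) and TGFB2 at the lower left (-1.01 and -1.08), nearer to the origin than COL1A1 (-1.83 and -1.98), and the receptors and SMAD2 lie close to the origin.

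As a description of pattern, the 5 genes most like each member were ranked by Pearson r of log2 CPM over the 12 libraries, centred within each dose, among genes of at least 10 CPM. The points share libraries and depth, and no p is given. For SMAD7 they were CNIH3 (r = 0.92), SQLE (0.92), MT-ND2 (0.91), MAPK13 (0.91) and LARP4 (0.90). For TGFB2 they were ADM (0.96), FSTL1 (0.94), PRCP (0.92), HEG1 (0.92) and LOXL2 (0.92), so FSTL1 is both a listed antagonist and among the nearest in pattern to TGFB2. For SKIL they were AGPAT5 (0.94), HS3ST3A1 (0.93), CEP83 (0.92), ZZZ3 (0.92) and BAZ1B (0.92). TGFBR1 was nearest to PLAT, the tissue plasminogen activator gene (0.97), TGFBR2 to EIF4EBP2 (0.97), SMAD2 to MRPL43 (0.90), SMAD3 to AURKB (0.94), SMAD6 to GOLM2 (0.88) and TGFB1 to KLF3 (0.92). No member was among the 5 nearest of another member, but TGFB1 and SMAD6, with means under 10 CPM, and the untested TGFB3 could not be named.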

How the data were processed

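Polyadenylated RNA of 12 IMR90 libraries was sequenced. GRCh38 and the tools Trimmomatic, STAR, RSEM and DESeq2 (1.36.0) are listed in the submitters' processing notes. Annotation release, strand setting and use of molecular identifiers are not given in those sources. The deposited expected counts and TPM are RSEM estimates per gene, according to the file headers, and the deposited transcript length stands beside them. Expected counts were rounded and analysed with edgeR 4.0.16 in R 4.3.3: filterByExpr with 4 groups (12329 genes), TMM, 1 mean per group, 8 residual degrees of freedom, quasi-likelihood tests and Benjamini-Hochberg adjustment over all tested genes within a comparison. The common biological coefficient of variation was 0.299. CPM uses TMM-scaled library sizes. Substrates were compared within each dose, as the average and as the difference of both doses, and doses within each substrate. Limma 3.58.1 tested log2 length. Gene positions came from GENCODE 29, promoters from RefSeq. The fits were also run on simulated data, drawn as independent libraries with no replicate standing apart. Those runs therefore do not vouch for the calls in these libraries.

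Members and lists were chosen with earlier results of these data known. Named were all members, list genes called (at most 6 a list in a substrate and 4 in a dose comparison, by p), the 2 list genes with the highest TPM, and the 5 nearest in pattern; exceptions are stated. Alternatives were RLE and upper-quartile scaling, no filter, a filter of 5 CPM in 3 libraries, DESeq2 1.42.0, limma-voom with sample weights, limma-trend on log2(TPM + 1), only the 6 libraries compared, a replicate block, no ribosomal DNA or mitochondrial genes, 100 nM libraries thinned to 2446778 reads, removal of a GC trend, and libraries left out.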

Additional observations from a re-analysis of the deposited data

How the results depend on the processing

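Every change of a member that was called in the reported fit kept its direction under each alternative run. Over all genes, the count for gel at 100 nM (28) became 335 with no filter, 158 with DESeq2, 447 with limma-voom, 7 with limma-trend on TPM, 5 with only the 6 libraries and 57 without replicate 1 of plastic at 100 nM and of gel at 250 nM together. At 250 nM (1) it became 2 with upper-quartile scaling, 231, 93, 161, 3 and 0 with those first 5 settings, 5 with the GC trend removed and 7 without both libraries. The average (93) became 573 with no filter, 385 with DESeq2, 801 with limma-voom, 53 with limma-trend and 203 without both. The difference between doses (0, of 779 at an unadjusted p under 0.05) became 129 with no filter. Dose on plastic (1050) became 1667 with DESeq2, 3173 with limma-voom and 2126 without both, and dose on gel (1703) became 2925 with limma-voom and 443 with only the 6 libraries. With 1 library left out, these counts ran from 3 to 104, 1 to 2, 40 to 253, 0 to 0, 132 to 2285 and 606 to 1796 in the order given.

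Without replicate 1 of all 4 groups (chosen after seeing the data) the counts over all genes were 501, 90, 602, 3, 3339 and 2045, and those of members 2, 0, 3, 0, 3 and 1, in that order.

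The members called at 100 nM (0) became 1 with DESeq2, 2 with limma-voom and 1 without both libraries, and at 250 nM (0) 1 with DESeq2 and 1 with limma-voom. On average (2) they became 1 with limma-trend, with thinning and with the GC trend removed. For dose on plastic (0) they became 1 with no filter, limma-voom, only the 6 libraries or without both, and for dose on gel (2) 1 with the stricter filter, limma-voom, thinning or without both, and 0 with only the 6 libraries. With 1 library left out they ran from 0 to 1 at 100 nM, 1 to 2 on average, 0 to 1 for dose on plastic and 0 to 2 for dose on gel, and stayed at 0 at 250 nM and for the difference. With the TGFB2-OT1 counts added (chosen after seeing the data), TGFB2 passed for dose on plastic at 1.21 and on gel at 0.87 without replicate 1 of plastic at 100 nM, at 1.21 and 0.90 without both libraries, and at 1.27 and 0.70 without replicate 1 of all 4 groups. These calls reverse the sign of TGFB2 alone in the reported fit, where it was lower at 250 nM on both substrates without passing the test. The causes were not tested.

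The replicate block gave 2 genes at 250 nM in place of 1, and 1 member in place of 2 on average and for dose on gel, where TGFB2 (-1.04, adjusted p = 0.0602) and TGFB1 (-2.90, 0.0716) missed the threshold in edgeR. Same-numbered libraries were not paired, since 8 of the 18 pairs of same-numbered libraries of different groups, and not each pair, correlated over 0.1 (mean r 0.05, from -0.24 to 0.32); 7 of 12 libraries correlated best with their own number, a hint from the data and not from the design. No member's length was called with any 1 library left out. Depth at 250 nM limits TGFB1, TGFB3 and SMAD6.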
